A study of Mus musculus with 10 samples.

Results

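Slc12a1, Umod, Kcnj1, Bsnd, Casr and Ptger3, genes of salt transport and its control in the thick ascending limb of the kidney, were followed in whole-kidney RNA of mice with and without Ehhadh. They were chosen by symbol and are 6 of the 24062 genes in the count table; all 6 were found in it, and all 6 were among the 15547 genes that passed the expression filter. Adult male C57BL/6N mice were compared, 4 without Ehhadh (KO) and 4 with the intact gene (WT). Single WT kidneys of strains DBA_2J and 129S2_SvPasCrl stand beside them without replicates. Each library came from polyadenylated RNA of a whole kidney, so no nephron segment was isolated, and the construction of the Ehhadh allele is not described in the labels. Ehhadh encodes the peroxisomal bifunctional enzyme of fatty acid β-oxidation.

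The thick ascending limb takes up sodium chloride from the tubule fluid without water and so builds the salt gradient on which urine concentration depends. The cotransporter NKCC2, encoded by Slc12a1, carries sodium, potassium and chloride across the apical membrane and is the target of loop diuretics. The potassium channel ROMK (Kcnj1) returns potassium to the tubule fluid, and chloride leaves on the blood side through chloride channels that need the subunit barttin (Bsnd). Loss of Slc12a1, Kcnj1 or Bsnd in humans causes forms of Bartter syndrome. Uromodulin (Umod) is made in the same cells and is the most abundant protein of normal urine. The calcium-sensing receptor (Casr) and the prostaglandin E receptor EP3 (Ptger3) restrain salt uptake there.

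The labels were checked first on the targeted gene. Ehhadh, in CPM (counts scaled to library size with TMM factors), averaged 260 ± 65.5 in the KO group against 2492 ± 634 in the WT group (SD, n = 4 each), with no overlap of the libraries; it read 788 CPM in 129S2_SvPasCrl and 796 CPM in DBA_2J. Total counts ran from 19.79 to 57.25 M per library, and KO libraries were deeper than WT libraries (47.2 ± 4.82 against 29.8 ± 6.98 M, SD, n = 4 each). The least read member, Ptger3, still had 348 counts in the shallowest library. Some sample titles start with the letter E: those of replicates 3 and 4 in both genotypes, but not those of replicates 1 and 2. The labels do not explain the letter, so it is called a title form here and not a batch. Nor do they explain the numbers that open the titles, each of which belongs to KO or to WT animals only, so that what they mark and the genotype cannot be told apart.

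Promoter sequence is shown for the members whose change or lack of change the results turn on: Slc12a1 and Kcnj1, which fell in KO, and Umod, which did not pass the test. RefSeq sequences (GRCm38.p6) were matched by symbol for 5 of the 6 members; Bsnd was not matched. Each line gives the 250 bases before the RefSeq start site, 5′ to 3′ on the strand of the gene, with matches to the searched motifs in capitals. The Slc12a1 stretch lies at chr2:125152350-125152599 (plus strand), that of Umod at chr7:119479263-119479512 (minus strand) and that of Kcnj1 at chr9:32393735-32393984 (plus strand). The start sites of Slc12a1 and Umod equal the first base of the gene in the count annotation, whereas that of Kcnj1 lies inside the gene, at the second of its 3 distinct exons.
Slc12a1: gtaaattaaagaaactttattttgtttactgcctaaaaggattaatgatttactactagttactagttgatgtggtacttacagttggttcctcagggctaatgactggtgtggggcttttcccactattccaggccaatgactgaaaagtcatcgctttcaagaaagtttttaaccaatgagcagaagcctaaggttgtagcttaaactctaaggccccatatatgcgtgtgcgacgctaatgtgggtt
Umod: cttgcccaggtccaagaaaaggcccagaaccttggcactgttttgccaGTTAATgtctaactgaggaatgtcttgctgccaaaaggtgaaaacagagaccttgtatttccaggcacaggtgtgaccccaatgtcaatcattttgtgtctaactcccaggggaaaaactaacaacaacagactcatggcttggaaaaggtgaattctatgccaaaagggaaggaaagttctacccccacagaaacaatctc
Kcnj1: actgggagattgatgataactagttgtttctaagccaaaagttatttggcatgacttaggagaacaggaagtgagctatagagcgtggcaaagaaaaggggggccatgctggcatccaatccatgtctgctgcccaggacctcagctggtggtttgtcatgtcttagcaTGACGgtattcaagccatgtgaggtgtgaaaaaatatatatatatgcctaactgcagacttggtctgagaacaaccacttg
The motifs were searched on both strands in the window from 250 bases before to 50 after the start, and none overlaps another in these promoters. Shares are over the 32851 promoters of this length that were searched, with a chromosome that holds no member left out. GTTAAT, the core of the HNF1 site, was found in Umod alone of the 5 members, at position −202 from the start, and in 7.1% of these promoters. TGACG, the core of the cAMP response element, was found in Kcnj1 alone, at position −81, and in 20.8% of these promoters. GCCNNNGGC, an AP-2 motif, was found in Umod alone, at position 40 after the start (16.6% of these promoters). AAGGTCA, the core of the estrogen-related receptor site (4.72%), and TATAAA (13.6%) were found in none of the 5. Slc12a1, Casr and Ptger3 held none of the 5 motifs.

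The comparison of KO with WT kidneys asked how these genes stand when Ehhadh is lost. The 3 genes of salt transport, Slc12a1, Kcnj1 and Bsnd, fell in KO by 1.36- to 1.45-fold, while Umod and the receptor genes Casr and Ptger3 did not pass the test. With edgeR's quasi-likelihood test and Benjamini-Hochberg adjustment over all genes tested, 3 of the 6 members were called lower and 0 higher, and all 3 came with no overlap of KO and WT libraries, as 17.7% of all tested genes did. Over all 15547 genes the test called 11% in either direction, 6.32% higher and 4.68% lower in KO, and the KO libraries all lay below the WT libraries in 7.95%. The median log2 fold change was −0.37 over the 6 members and −0.0057 over all tested genes.

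Slc12a1 (chromosome 2, 125152600 to 125230001, plus strand, mm10; 28 distinct exons) read 514, 489, 455 and 678 CPM in KO replicates 1 to 4 and 769, 690, 742 and 702 CPM in WT replicates 1 to 4. All 4 KO libraries were below all 4 WT libraries, but KO replicate 4 lay close under the lowest WT library and far above the other KO libraries. Its KO mean of 534 ± 99.2 CPM stood against a WT mean of 725 ± 36.4 CPM (SD, n = 4 each). The log2 fold change was −0.44 with a standard error (SE) of 0.11 and an adjusted p of 0.0264 in edgeR. This call was lost in edgeR when any of KO replicates 1, 2 and 3 or of WT replicates 1 and 3 was left out (0.0596 to 0.0786 after adjustment), with log2 fold changes from −0.58 to −0.37 over the 8 fits with 1 library left out. Without KO replicate 4 the fall was −0.58 (adjusted p = 0.00063 in edgeR).

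Kcnj1 (chromosome 9, 32372418 to 32399194, plus strand) read 118, 101, 90.8 and 121 CPM in KO and 139, 133, 165 and 164 CPM in WT. Every KO library was again below every WT library, and the WT animals with a leading E in their titles were the higher pair. Averages were 108 ± 14.2 CPM (KO) and 150.4 ± 16.7 CPM (WT; SD, n = 4 each; log2 fold change −0.48, SE 0.10; adjusted p = 0.0137 in edgeR). The call was kept whichever of the 8 libraries was dropped (edgeR adjusted p from 0.00893 to 0.0438).

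Bsnd (chromosome 4, 106483458 to 106492243, minus strand) fell most of the 6. Its KO libraries read 33.2, 36.2, 32.8 and 36.4 CPM and its WT libraries 41.5, 48.7, 52.2 and 58.0 CPM. The KO libraries lay within a narrow band under the WT range, which was wider. From 50.1 ± 6.91 CPM in WT it came down to 34.7 ± 1.89 CPM in KO (SD, n = 4 each), or 1.45-fold, with a log2 fold change of −0.53 (SE 0.09) and an adjusted p of 0.00421 in edgeR. Dropping any 1 of the 8 libraries left this call in place as well (edgeR adjusted p from 0.00171 to 0.0181).

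Umod (chromosome 7, 119462708 to 119479262, minus strand), the most highly read member, gave 1861, 1929, 1444 and 2239 CPM in KO and 1899, 1721, 1499 and 1928 CPM in WT. The groups overlapped over nearly their whole range, and the lowest and the highest of the 8 libraries were both KO. The log2 fold change was 0.08 (SE 0.12; 95% interval −0.19 to 0.36; adjusted p = 0.723 in edgeR), and its sign turned without KO replicate 4 (−0.014).

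The receptor genes were read at much lower levels. Casr (chromosome 16, 36493696 to 36562134, minus strand; 14.71 Mb from Ehhadh on the same chromosome) read 16.6, 17.9, 14.9 and 25.05 CPM in KO and 24.4, 17.8, 25.1 and 24.999 CPM in WT. Each group held 1 library at the level of the other: KO replicate 4 was as high as the WT libraries, and WT replicate 2 as low as the KO libraries. Its log2 fold change was −0.31 (SE 0.16; 95% interval −0.66 to 0.05; adjusted p = 0.259 in edgeR). Without KO replicate 4 the gene passed the test (log2 fold change −0.48, adjusted p = 0.0337 in edgeR), as it did in no other fit with 1 library left out.

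Ptger3 (chromosome 3, 157566892 to 157644758, plus strand) read 18.4, 14.99, 14.01 and 20.1 CPM in KO and 17.9, 22.1, 18.04 and 17.9 CPM in WT. The groups overlapped, with 3 WT libraries between the KO values. Its log2 fold change of −0.17 (SE 0.12; 95% interval −0.44 to 0.10) did not pass (adjusted p = 0.422 in edgeR). The interval of Casr reaches past the falls of all 3 transport genes, and that of Ptger3 reaches the fall of Slc12a1 but not those of Kcnj1 and Bsnd. No exon of the 6 members overlaps another gene in the count annotation.

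**Figure D1:**
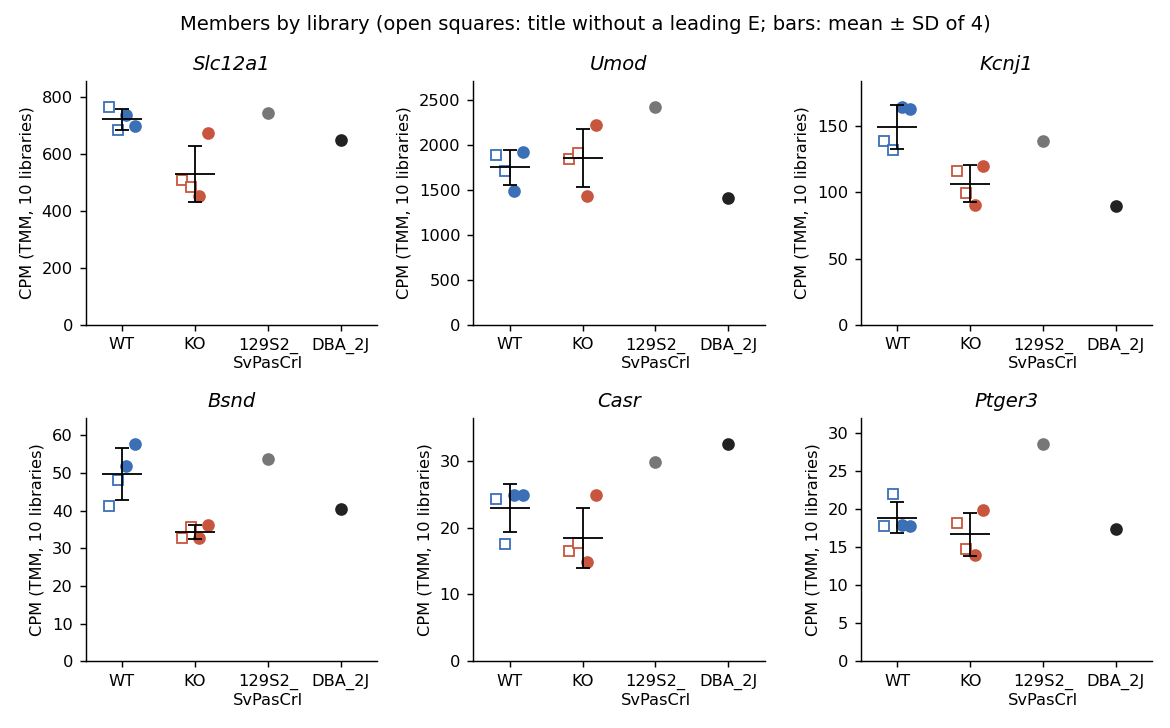
Each panel plots the CPM of 1 member (y axis from 0, TMM scaling over 10 libraries) in each library, with the mean ± SD of the 4 WT and 4 KO libraries as bars; open squares are animals without a leading E in the title. The KO points of Slc12a1, Kcnj1 and Bsnd lie under all WT points, whereas those of Umod, Casr and Ptger3 overlap them.

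Within title forms the falls of the transport genes kept their direction. In the animals without a leading E (2 KO, 2 WT) the log2 fold changes were −0.54 for Slc12a1, −0.32 for Kcnj1 and −0.39 for Bsnd, and all 3 were called in edgeR (adjusted p = 0.000646, 0.0264 and 0.0203). In those with a leading E they were −0.35, −0.64 and −0.67, and none was called (adjusted p = 0.4, 0.11 and 0.0502 in edgeR). The difference between the forms was not called for any member (adjusted p of the interaction 0.761 to 0.988 in edgeR) or for any other gene (0 called, 1004 of 15547 with an unadjusted p under 0.05; edgeR alone was used). With 2 libraries of each genotype per form, this test cannot show that the forms are alike. The unadjusted p of the interaction in edgeR was 0.102 for Kcnj1 and 0.0785 for Bsnd.

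**Figure D2:**
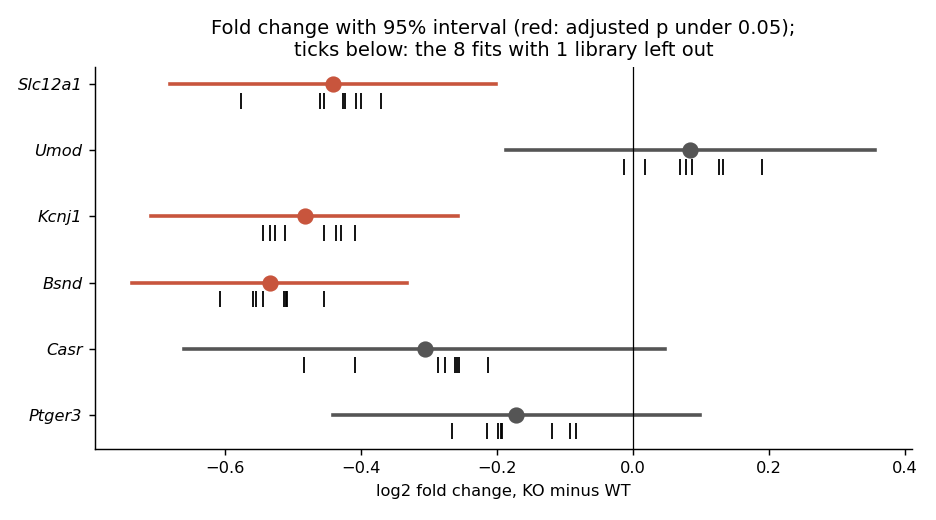
The log2 fold change of each member (x axis, KO minus WT) is drawn as a point with its 95% interval, in red where the adjusted p in edgeR was under 0.05; the ticks under each line are the 8 fits with 1 library left out. The ticks of Slc12a1, Kcnj1 and Bsnd stay below 0, those of Umod lie on both sides of it from −0.014 to 0.19.

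Whether the members moved apart from each other was asked with ratios of 2 members within a library, which need no scaling between libraries. Umod stood higher against the transport genes in KO than in WT. The log2 ratio of Slc12a1 to Umod was −1.81 ± 0.14 in KO and −1.27 ± 0.19 in WT (SD, n = 4 each), a difference of −0.53 with no overlap (−1.98 to −1.67 in KO, −1.46 to −1.02 in WT). The log2 ratio of Umod to Kcnj1 was 4.11 ± 0.14 in KO and 3.55 ± 0.26 in WT, a difference of 0.56, also without overlap. For both pairs the two-sided exact permutation p was 0.0286, the smallest that 4 against 4 libraries can give, and the adjusted p over all 15 pairs was 0.214. With that smallest p, at least 9 of the 15 pairs would have to reach it for any to pass the adjustment, and 2 did.

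Umod against Bsnd gave a difference of 0.60 and Umod against Casr one of 0.40, with overlapping libraries (exact permutation p = 0.0571 for each, adjusted p = 0.214). Among the transport genes themselves the differences were small: 0.03 for Slc12a1 to Kcnj1, 0.07 for Slc12a1 to Bsnd and 0.04 for Kcnj1 to Bsnd (exact permutation p = 0.8286, 0.743 and 0.686).

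**Figure D3:**
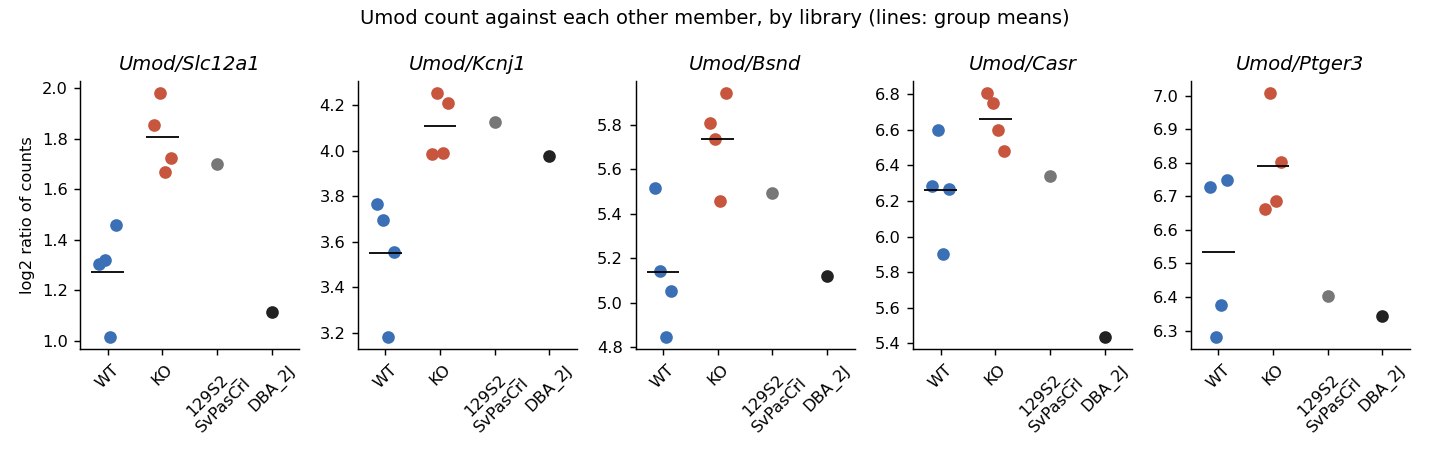
Each panel plots the log2 ratio of the Umod count to that of 1 other member (y axis, own scale per panel) by library, with lines at the means of the 4 WT and 4 KO libraries. KO points lie above all WT points for Slc12a1 and Kcnj1 and overlap WT for Bsnd, Casr and Ptger3.

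The other genes of thick ascending limb function were described by 7 lists with 63 tested genes. Of these, 9 were lower in KO, 0 higher and 54 did not pass, so that 14.3% were lower, against 4.68% of all tested genes; their median log2 fold change was −0.18. No segment was isolated, so these counts do not tell in which segment the genes were lower. Of 13 genes of ion exit, sodium pump and proton exchange, 1 fell (list median −0.22). Of 4 tested claudins, tight junction proteins that set which ions pass between the cells, none was called (median −0.05). Cldn3 had a log2 fold change of 0.15 (SE 0.07) and Cldn19 one of −0.13 (SE 0.11). Cldn10 averaged 182 ± 11.1 CPM (KO) and 182 ± 17.7 CPM (WT; SD, n = 4 each).

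Of 12 regulators of NKCC2, 1 fell (list median −0.08): Wnk4, a kinase upstream of the cotransporters, which changed by −0.36 on the log2 scale (SE 0.08; adjusted p = 0.0196 in edgeR). That call was lost in edgeR when either KO replicate 2 or WT replicate 1 was dropped (0.0535 to 0.0547 after adjustment). Stk39, which encodes the kinase SPAK that phosphorylates NKCC2, read −0.08 (SE 0.06) and did not pass.

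Of 10 tested genes of hormone receptors and cAMP signalling, 3 fell (list median −0.16). The glucagon receptor gene Gcgr went from 53.3 ± 4.80 CPM (WT) to 36.3 ± 3.86 CPM (KO), and the vasopressin receptor gene Avpr2 from 23.2 ± 2.25 to 16.9 ± 1.49 CPM (SD, n = 4 each). Their log2 fold changes were −0.56 (SE 0.09) and −0.46 (SE 0.09). The adenylyl cyclase gene Adcy6 fell by 0.21 on the log2 scale (SE 0.05), a call that edgeR kept only when KO replicate 4 or WT replicate 2 was dropped and not in the other 6 fits (0.0593 to 0.0822 after adjustment). The parathyroid hormone receptor gene Pth1r read −0.12 (SE 0.05) and did not pass.

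Of 9 other marker genes of the segment, 3 fell (list median −0.27). Ppp1r1a, a phosphatase inhibitor, went from 141 ± 0.677 CPM in WT to 103 ± 10.4 CPM in KO (SD, n = 4 each; log2 fold change −0.45, SE 0.07; adjusted p = 0.00237 in edgeR), and Wfdc15b from 97.7 ± 8.93 to 77.1 ± 4.83 CPM. The call of Wfdc15b was lost in edgeR without WT replicate 3 (adjusted p = 0.0518), and that of Ckb, a creatine kinase gene with overlapping groups (log2 fold change −0.27), in all fits but those without KO replicate 1 or WT replicate 1 (0.0612 to 0.124). Egf, a growth factor gene of the distal nephron, read −0.26 (SE 0.13), and Hpn, the protease that releases uromodulin, 0.03 (SE 0.07); neither passed. None of 10 transcription factor genes of the segment was called (median −0.15), with Pou3f3 at −0.23 (SE 0.08) and Tfap2b at −0.32 (SE 0.14). Of 5 macula densa genes, Avpr1a fell (−0.47, SE 0.13). Leaving out any single library except WT replicate 4 ended that call in edgeR (adjusted p = 0.0557 to 0.111).

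Some markers of neighbouring segments were also called lower in KO, as 4.68% of all tested genes were. Bsnd is also expressed in the distal convoluted tubule and in intercalated cells, and Kcnj1 in the distal tubule and principal cells. The part of these segments in the falls of both genes was not tested. Of 8 principal cell and connecting tubule genes 6 fell (median −0.57), among them Scnn1b, a subunit of the epithelial sodium channel (75.4 ± 4.66 to 45.5 ± 4.49 CPM, SD, n = 4 each). Of 7 intercalated cell genes 5 fell (median −0.49), among them the proton pump gene Atp6v1g3 (41.1 ± 3.597 to 25.4 ± 1.28 CPM, SD, n = 4 each). Of 6 distal convoluted tubule genes 2 fell (median −0.42): Trpm6 (−0.88, SE 0.20) and the thiazide-sensitive cotransporter gene Slc12a3 (−0.39, SE 0.10; not called in edgeR when any of KO replicates 1 and 2 or of WT replicates 1, 3 and 4 was left out, adjusted p = 0.0512 to 0.0684).

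The summed level of the principal cell list ran from 469 to 499 CPM in KO and from 681 to 986 CPM in WT, and that of the intercalated cell list from 228 to 251 CPM in KO and from 326 to 360 CPM in WT. That of the distal convoluted tubule list was 1052 to 1313 CPM in KO against 1374 to 1747 CPM in WT. None of the 3 overlapped between the groups, whereas the sum over the 6 members did (2038 to 3099 CPM in KO, 2486 to 2878 CPM in WT). Umod was the largest part of the member sum, at 1435 to 2224 CPM in KO and 1490 to 1917 CPM in WT. The sums of the proximal tubule, NKCC2 regulator, macula densa and macrophage lists did not overlap either, with KO the lower group in each. A sum follows its most highly read genes. In the distal convoluted tubule list Slc12a3 alone averaged 1157 CPM in WT and 881 CPM in KO. In the macrophage list Csf1r averaged 57.7 CPM in WT and 37.0 CPM in KO, while the median log2 fold change of that list was 0.14. No marker of the principal cell, intercalated cell and distal convoluted tubule lists was at 0 in any of the 8 libraries. Their part in the falls of Slc12a1, Kcnj1 and Bsnd was not tested. In whole-kidney RNA, fewer cells of a type and less RNA per cell cannot be told apart.

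Proximal tubule genes were called lower in 2 of 10 (median −0.22), Slc13a3 and Lrp2, and the summed level of that list was 15695 to 18243 CPM in KO and 18606 to 19294 CPM in WT. The call of Slc13a3 was lost in edgeR in the same 5 of 8 fits as that of Slc12a3 (adjusted p = 0.0544 to 0.0765). That of Lrp2 was lost in 7, all but the fit without KO replicate 4 (0.0549 to 0.107). Of 7 thin limb genes 2 fell, Corin and the urea transporter gene Slc14a2, and Cldn4 rose (median −0.21). The call of Slc14a2 was not kept when any of KO replicates 1 and 2 or of WT replicates 1, 2 and 4 was dropped (edgeR adjusted p from 0.0739 to 0.0904). None of 5 podocyte genes was called (median 0.18). Of 6 endothelial genes Kdr fell (median −0.24), a call kept in edgeR only when KO replicate 3 was dropped (otherwise 0.0615 to 0.0972), and of 5 macrophage genes Csf1r fell (median 0.14).

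Tubular injury genes rose in 5 of 7 with none lower (median 1.68). Among them Havcr1, which encodes the injury marker KIM-1, went from 1.81 ± 0.566 CPM (WT) to 44.9 ± 20.8 CPM (KO; SD, n = 4 each; log2 fold change 4.60, SE 0.33). The part of tubular injury in the levels of the members was not tested.

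**Figure D4:**
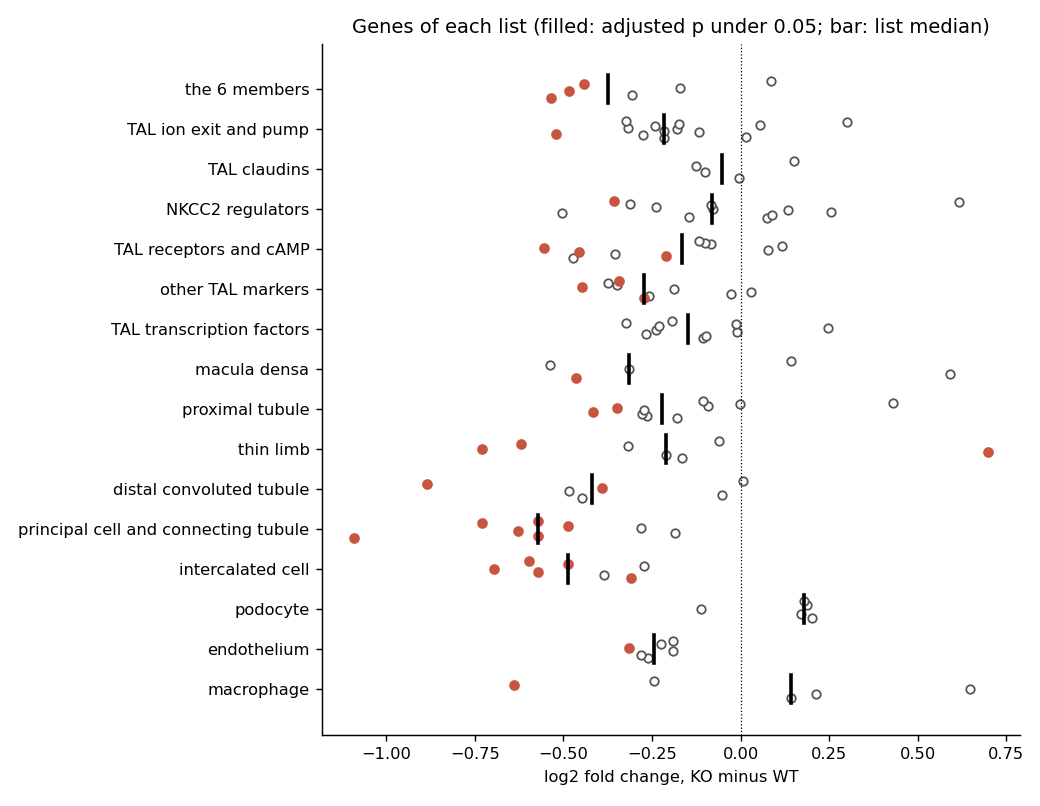
Each point is 1 tested gene placed by its log2 fold change (x axis, KO minus WT) in the row of its list; filled points had an adjusted p in edgeR under 0.05, and bars are list medians. The medians were −0.37 for the 6 members, −0.57 for principal cell and connecting tubule genes, −0.49 for intercalated cell genes and −0.05 for claudins; tubular injury genes are left out of the drawing because they reach 4.60.

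Levels were compared between the members per length, as CPM per kb of exon. In WT the order was Umod (664 ± 74.6), Slc12a1 (152 ± 7.74), Kcnj1 (45.7 ± 5.12), Bsnd (18.3 ± 2.54), Ptger3 (9.35 ± 1.02) and Casr (5.05 ± 0.781; CPM per kb, SD, n = 4). No 2 neighbours in this order overlapped between libraries: the closest were Bsnd and Ptger3, as a ratio, at 15.2 to 21.3 and 8.81 to 10.9 CPM per kb. The same order held in each of the 10 libraries, KO and the other strains included. In KO the levels were 702 ± 123 for Umod, 112 ± 20.9 for Slc12a1, 32.6 ± 4.29 for Kcnj1, 12.6 ± 0.684 for Bsnd, 8.28 ± 1.40 for Ptger3 and 4.07 ± 0.983 for Casr (CPM per kb, SD, n = 4).

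**Figure D5:**
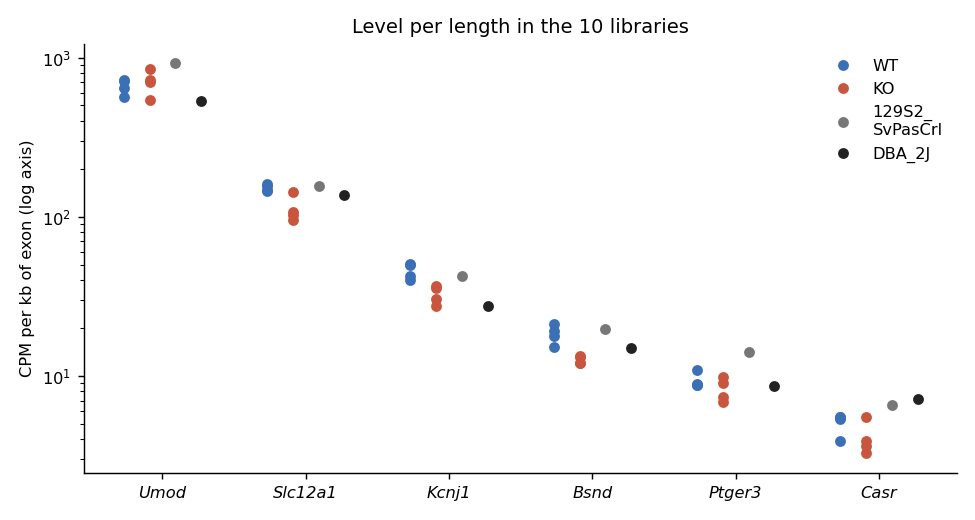
The level of each member in CPM per kb of exon (y axis, log scale) is plotted for all 10 libraries, coloured by group. The members keep 1 order from Umod, at 664 CPM per kb in WT, down to Casr, at 5.05.

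The DBA_2J and 129S2_SvPasCrl kidneys are single libraries, so their values are set beside the range of the 4 WT libraries of C57BL/6N with no test. For this comparison CPM was scaled over all 10 libraries. In DBA_2J, 5 of the 6 members lay below all 4 WT libraries and Casr above them; over all tested genes 37.3% lay below and 35.1% above (72.5% in all), so lying outside the WT range is common in this library. Kcnj1 was the farthest below, at 89.4 CPM against 132 to 164 CPM in WT, a level 1.67-fold under the WT mean and under the lowest KO library as well (90.2 CPM). Umod read 1406 CPM (WT 1490 to 1917 CPM), Slc12a1 649 CPM (684 to 764 CPM), Bsnd 40.4 CPM (41.3 to 57.7 CPM) and Ptger3 17.3 CPM (17.8 to 21.9 CPM), each close under the WT range.

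In the 129S2_SvPasCrl library the transport genes lay within the WT range, at 744 CPM for Slc12a1, 138 CPM for Kcnj1 and 53.6 CPM for Bsnd. The other 3 members lay above all WT libraries, as 32.5% of all tested genes did, with 32.1% below and 64.7% in all outside the WT range. Umod read 2419 CPM, 1.38-fold above the WT mean, and Ptger3 28.6 CPM, 1.51-fold above it. Casr read 29.8 CPM in this library and 32.5 CPM in DBA_2J, against 17.6 to 24.9 CPM in WT. The log2 ratio of Slc12a1 to Umod was −1.70 in 129S2_SvPasCrl, within the KO range, and −1.12 in DBA_2J, within the WT range. That of Umod to Kcnj1 was 4.13 in 129S2_SvPasCrl, within the KO range (3.985 to 4.25). In DBA_2J it was 3.976, above the WT range (3.18 to 3.77) and just under the KO range.

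The genes most like each member were sought by the root mean square difference of log2 CPM over the 10 libraries, each gene centred on its own mean, among 13754 other genes with a mean of 1 CPM or more. Closest to Slc12a1 were Cabyr and Shank2 (0.12 each on the log2 scale), to Umod Enah and Plcg2 (0.12 and 0.13), and to Kcnj1 Rap1gap and Tfap2b (0.088 and 0.099). Closest to Bsnd were 1810019D21Rik and Mief2 (0.10 each), to Casr Ppargc1b and Ptpn13 (0.11 and 0.12), and to Ptger3 Dedd2 and Aqp11 (0.11 and 0.14). The Kcnj1 neighbour Tfap2b, a transcription factor gene of the distal nephron, is also in the transcription factor list. Between members the difference was smallest for Slc12a1 and Bsnd (0.19) and largest for Kcnj1 and Casr (0.40) and Umod and Casr (0.39). No member was among the 100 genes closest to another: the nearest was Bsnd, at place 167 from Kcnj1.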

How the data were processed

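The labels' protocols give poly(A) capture and single-end sequencing of kidney RNA from 10 mice. By gene, featureCounts 1.5.2 summed primary alignments on mm10 exons, gave a read to each gene it overlapped and set no strand option, per the file headers; STAR and edgeR are named in the submitters' processing notes. The authors deposited raw counts and normalized log2 values; the latter matched voom's TMM-scaled log2 CPM (13645 genes, largest difference 4.97e-14). For KO against WT, the deposited counts went through filterByExpr, TMM scaling, glmQLFit and glmQLFTest in edgeR 4.0.16 under R 4.3.3, with genotype as the single term; a gene was called where its p, adjusted over 15547 genes, was under 0.05. A standard error is the log2 fold change over the square root of F. The fit was also run on simulated counts, with the outcome not reported here. All changes simulated there were larger than the falls of the transport genes. Alternatives used DESeq2 1.42.0 and limma 3.58.1. Replicate numbers were given by accession order and are names only; numbers in the titles pair at most 4 animals. Ratios added 0.5 to each count. Similarity used a prior count of 2.

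The members, the 17 gene lists and the tests were chosen with earlier results of these data known. Named genes are the members, Ehhadh, from each list at most 4 called genes, taken by smallest p (at most 2 in lists without a call), and the 2 nearest genes of each member; Cldn10, Stk39, Pth1r, Egf and Hpn were named after their values were seen. Some genes of the lists are counted but not reported here by name.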

Additional observations from a re-analysis of the deposited data

Results flagged for a closer look

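In WT kidneys 1 library stood apart from the other 3 in 2 of the 6 members, and it was WT replicate 2 both times. For Casr it read 17.8 CPM against 24.4 to 25.1 CPM in the others (the gap to its neighbour was 0.903 of the range of the group), and for Ptger3 22.1 CPM against 17.9 to 18.04 CPM (0.964). Both exceed Dixon's 95% critical value for 4 samples, 12 groups were examined, and chance passes this limit in about 1 in 20 groups. Without WT replicate 2 the log2 fold change was −0.41 for Casr and −0.084 for Ptger3, and neither passed in edgeR (adjusted p = 0.137 and 0.737).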

How the results depend on the processing

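Kcnj1, Bsnd and Slc12a1 were called lower, and Umod, Casr and Ptger3 not called, under DESeq2's size factors, DESeq2, limma on the deposited log2 values, no filter, title form as a term, all 10 libraries and thinning to the smallest total. Without 1 library the log2 fold changes ran from −0.58 to −0.37 for Slc12a1, from −0.48 to −0.21 for Casr and from −0.014 to 0.19 for Umod, and the called genes numbered 1005 (without KO replicate 1) to 1638 (without KO replicate 4), with 1068 without KO replicate 2 and 1006 without WT replicate 3. With titles with a leading E only (2 against 2), 143 genes were called, and Slc12a1 (−0.35), Kcnj1 (−0.64) and Bsnd (−0.67) were not; with the other titles only (also 2 against 2), 1723 were called and all 3 were called lower. Dedd2 turned to 0.0215 with a leading E only, and Cldn19 to 0.0589 with the other titles only; the cause of these differences was not tested. Ratios that are near 0 changed sign without 1 library: −0.033 to 0.0906 for Slc12a1 to Kcnj1, −0.031 to 0.18 for Slc12a1 to Bsnd and −0.028 to 0.0907 for Kcnj1 to Bsnd. On the strand of the gene alone, by construction fewer promoters held a motif: 3.65% HNF1, 2.52% estrogen-related receptor, 12.4% cAMP response and 8.32% TATA. The numbers that end the titles are shared by KO and WT only among the 4 animals without a leading E, and the labels do not say that they pair animals. With them as a replicate block in those 4 libraries, an alternative added after seeing the data, 1935 genes were called, the members Slc12a1 (−0.54), Kcnj1 (−0.32) and Bsnd (−0.38) among them. No paired analysis was possible because of this over all 8 libraries. Casr and Ptger3 had the fewest counts of the members, at 348 to 1314 per C57BL/6N library.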

Other observations

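Among the 4 KO libraries the 6 members shared an order at its ends: replicate 4 was the highest and replicate 3 the lowest for all 6. Of all 15547 tested genes, 10.3% had replicate 4 highest and replicate 3 lowest. Havcr1 showed the same ends, at 28.9 CPM in replicate 3 and 74.9 CPM in replicate 4, while Ehhadh was lowest in replicate 4 (175 CPM; all scaled over 10 libraries). The single 129S2_SvPasCrl library, wild type for Ehhadh by its label, also read Havcr1 high. It stood at 62.8 CPM there, against 1.33 to 2.43 CPM in WT of C57BL/6N. No other gene of the injury list was above the WT range in that library. Sox9 (0.831 CPM, WT 0.409 to 0.885) and Lcn2 (2.67 CPM, WT 1.83 to 5.53) were within it. Vcam1 (5.48 CPM, WT 6.23 to 6.66) and Krt20 (0.119 CPM, WT 0.505 to 0.919) were below it. So were Spp1 (489.9 CPM, WT 490.2 to 618) and Clu (143 CPM, WT 237 to 439).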
